A study of Rattus norvegicus with 8 samples.

Results

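A set of 10 genes of fatty acid supply and oxidation was followed in neonatal rat vessels: Ppargc1a, Cd36, Lpl, Fabp3, Fabp4, Cpt1a, Cpt1b, Acadm, Acadl and Hadha. They are 10 of the 14506 genes with a single symbol on the array, and each is read from 1 probe set, that with the highest mean over all 8 arrays where a gene had several. The list was chosen by function around Ppargc1a, which was itself selected on its measured difference between the vessels in the strains. Expression was measured on Affymetrix Rat Gene 1.0 ST arrays in 4 groups of 2 arrays each: the ductus arteriosus (DA) of Brown-Norway (BN) rats, the aorta of BN rats, the DA of Fischer344 (F344) rats and the aorta of F344 rats. All animals were full-term neonates taken 1 h after birth, with no treatment named in the labels, and RNA was extracted from pooled tissues, with 150 ng of total RNA labelled per array. The labels do not say that replicates came from separate litters or pools of animals, so each p-value reflects only how far these arrays differ, which may be technical. Values are log2 signals, so a difference of 1 is a 2-fold difference, and levels of different genes are not compared.

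The DA is the fetal vessel between the pulmonary artery and the aorta, and it closes after birth. BN is an inbred strain studied because its ductus is prone to remain patent after birth. Long-chain fatty acids are released from circulating lipoproteins by lipoprotein lipase, taken up with the help of CD36 and carried in the cytoplasm by fatty acid binding proteins. Carnitine palmitoyltransferase 1 then commits them to the mitochondria, where chain-length specific dehydrogenases and the trifunctional protein carry out beta-oxidation. Ppargc1a encodes PGC-1alpha, a transcriptional coactivator of nuclear receptors such as the PPARs and ERRs that raises mitochondrial and fatty acid oxidation genes in brown fat, heart, muscle and liver. Its transcription is known to respond to cAMP through CREB, a factor that binds the cAMP response element (CRE) TGACGTCA. Birth is a time at which newborn tissues turn from glucose towards milk fat as a fuel.

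The stretches of 250 bases before the annotated gene start are shown for Ppargc1a and Cd36, whose DA signals differed most between the strains among the 10 genes, and for Acadm, which holds the same CRE as Ppargc1a and had another expression pattern. They are from RefSeq on GRCr8, an assembly of the BN strain, and the F344 sequence was not used here. Capitals mark the CRE, or its 5-letter core TGACG on either strand.
Ppargc1a, chr14:63634058-63634307, plus strand: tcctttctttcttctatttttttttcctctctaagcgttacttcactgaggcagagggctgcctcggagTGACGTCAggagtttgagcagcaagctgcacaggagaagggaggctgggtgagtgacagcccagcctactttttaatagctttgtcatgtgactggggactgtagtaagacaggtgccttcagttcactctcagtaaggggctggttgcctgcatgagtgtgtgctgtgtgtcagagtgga
Acadm, chr2:245542865-245543114, minus strand: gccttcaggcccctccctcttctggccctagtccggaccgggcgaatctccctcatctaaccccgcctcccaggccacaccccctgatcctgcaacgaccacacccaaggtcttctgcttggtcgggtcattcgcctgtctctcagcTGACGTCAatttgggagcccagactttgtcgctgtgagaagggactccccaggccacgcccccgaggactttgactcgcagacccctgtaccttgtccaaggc
Cd36, chr4:18246332-18246581, plus strand: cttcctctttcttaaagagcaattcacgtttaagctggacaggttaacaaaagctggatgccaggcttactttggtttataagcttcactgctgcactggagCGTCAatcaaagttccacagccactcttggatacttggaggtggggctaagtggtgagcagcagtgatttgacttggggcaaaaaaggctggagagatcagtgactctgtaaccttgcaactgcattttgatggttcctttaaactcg
The full CRE lay at bases -181 to -174 from the annotated start of Ppargc1a and at -103 to -96 of Acadm. Cd36 held the core alone, on the minus strand, at -148 to -144. Sequences were matched for 6 of the 10 genes (Fabp3, Cpt1a and Hadha beside the 3 shown): 2 of the 6 held the CRE, against 531 of all 33469 promoters (1.59%), and 4 of the 6 held the core, against 18.2% of all promoters. The core is contained in the CRE, so the counts overlap. The 2 include Ppargc1a, whose response to CREB was already known, so the count is a description. The nuclear receptor hexamer AGGTCA was found on either strand in 0 of the 6 and in 14.1% of all promoters. The longer ERR half-site AAGGTCA, which contains it, was in 0 of the 6 and in 3.99% of all promoters. Of 89 promoters of other genes of lipid use, 0 held the CRE and 17 the core. These matches are letters in a window and do not show binding.

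Ppargc1a was the gene whose level set the BN DA apart. It stood at 7.87 and 8.17 in BN DA, against 6.14 and 6.38 in BN aorta. In F344 it was at 6.22 and 6.43 in DA and at 6.08 and 6.37 in aorta. Both BN DA arrays lay above all 6 other arrays, whose values overlapped across the 3 remaining groups. The order of the group means was BN DA (8.02 ± 0.21, SD, n = 2), F344 DA (6.33 ± 0.15), BN aorta (6.26 ± 0.17) and F344 aorta (6.23 ± 0.21), and only the step below BN DA exceeded the spread of the arrays. BN DA was 3.39-fold above BN aorta (log2 difference 1.76 ± 0.17 SE) and 3.23-fold above F344 DA (1.69 ± 0.17). The corresponding differences were 0.10 ± 0.17 between DA and aorta in F344 and 0.03 ± 0.17 between BN and F344 in aorta, and the tissue difference was larger in BN than in F344 by 1.66 ± 0.23. Ppargc1a entered the list with this pattern already known, so its values are a description and no p is given for them. Its BN DA level was as high without either BN DA array: the difference from BN aorta was between 1.61 and 1.91 over all alternatives run, and that from F344 DA between 1.54 and 1.84.

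**Figure D1:**
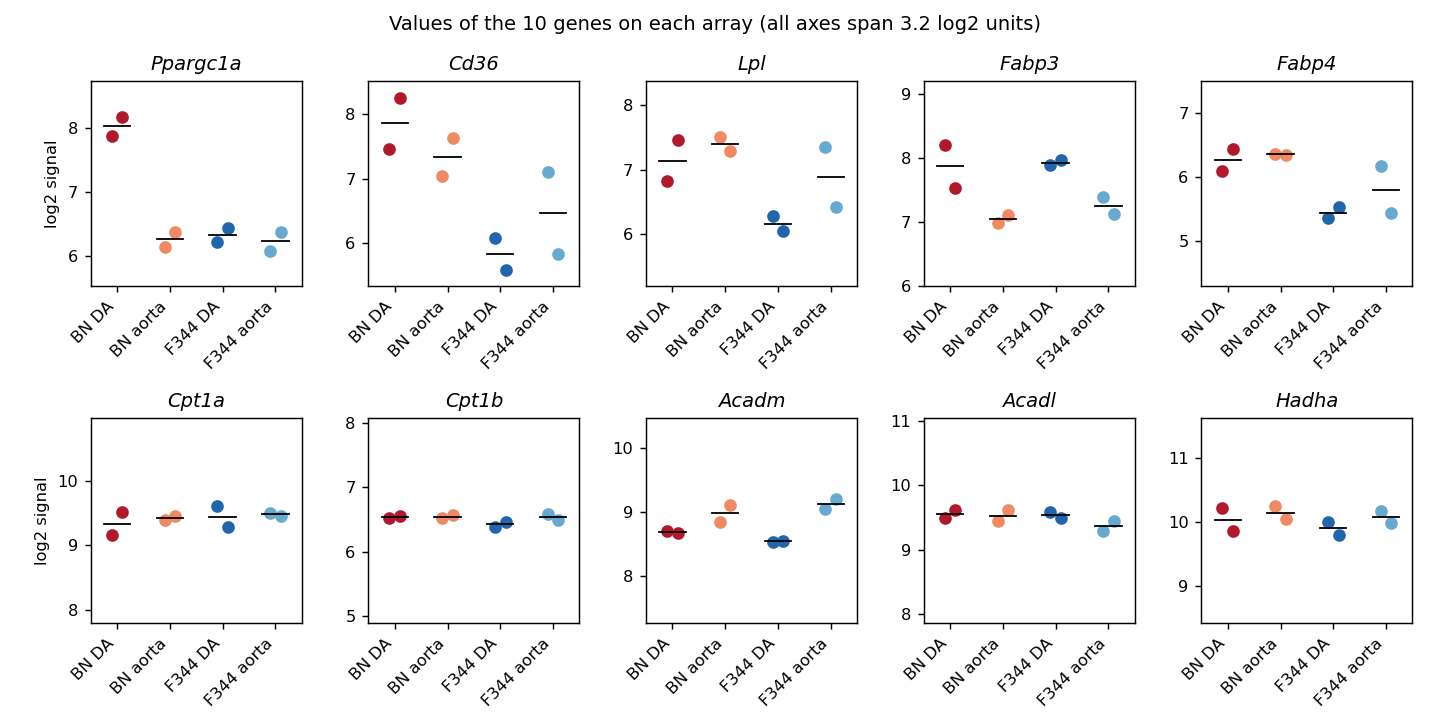
Log2 signal (y axis) of each of the 10 genes on each array (points, 2 per group) with the group mean (bar), in BN DA, BN aorta, F344 DA and F344 aorta; each y axis spans the same number of log2 units. Ppargc1a is high in BN DA alone (7.87 and 8.17), Cd36 is higher in BN DA than in F344 DA, Fabp3 is higher in DA than in aorta in each strain, and Cpt1a, Cpt1b, Acadl and Hadha vary little over the 8 arrays.

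Of the lipid uptake genes, Cd36 was higher in BN DA than in F344 DA, and Lpl did not pass the test. Cd36, which encodes a scavenger receptor that takes up long-chain fatty acids, stood at 7.46 and 8.26 in BN DA and at 6.08 and 5.58 in F344 DA, with no overlap. In aorta it was at 7.04 and 7.63 in BN and at 7.11 and 5.82 in F344, where the arrays overlapped. Cd36 was 4.09-fold higher in BN DA than in F344 DA (2.03 ± 0.41 SE, limma adjusted p = 0.0303). The BN excess in aorta was 0.87 ± 0.41 and did not pass (limma adjusted p = 0.968), and the difference between these strain effects was 1.16 ± 0.58 (adjusted p = 0.557). Without F344 aorta replicate 1 the aorta value was 1.52 and the difference of effects 0.51, and without replicate 2 they were 0.22 and 1.81, none of which passed. The DA call was lost without F344 DA replicate 1 (2.28) and without F344 DA replicate 2 (1.78). The call was also lost after centring on brighter genes (1.88, limma adjusted p = 0.0508), with array weights (2.03, 0.068) and with every probe set tested (2.03, 0.0602). Cd36 has another, dimmer probe set, at 5.96 and 6.99 in BN DA and at 5.30 and 4.77 in F344 DA, which differed the same way by 1.44 ± 0.41 (adjusted p = 0.108 in a fit to every probe set).

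Lpl encodes lipoprotein lipase, which frees fatty acids from triglyceride-rich lipoproteins at the vessel surface. It was at 6.82 and 7.46 in BN DA, against 6.27 and 6.05 in F344 DA, and the arrays did not overlap. In aorta it was at 7.51 and 7.29 in BN and at 7.35 and 6.42 in F344. The strain difference in DA was 0.98 ± 0.29 SE (limma adjusted p = 0.0876) and did not pass. In F344, Lpl was lower in DA than in aorta by 0.73 on the log2 scale, with no overlap, but this did not pass either (limma adjusted p = 0.135). The vessel difference was -1.20 without F344 aorta replicate 2 (adjusted p = 0.0349) and -0.26 without replicate 1 (0.629). The strain difference in DA was 1.30 without BN DA replicate 1 (adjusted p = 0.0347) and 0.67 without replicate 2 (0.204).

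Of the fatty acid binding protein genes, Fabp3 was higher in DA than in aorta and Fabp4 was not called. Fabp3, the heart-type protein that carries fatty acids to oxidation in muscle, was at 8.21 and 7.54 in BN DA, against 6.99 and 7.11 in BN aorta. In F344 it was at 7.89 and 7.97 in DA and at 7.39 and 7.13 in aorta. Each DA array was above each aorta array, in each strain and across strains. Averaged over the strains, Fabp3 was 1.68-fold higher in DA (0.75 ± 0.14 SE, limma adjusted p = 0.00767), and this call was kept in all 18 alternatives, with values between 0.58 and 0.92. Within a strain the difference was 0.83 ± 0.20 in BN (limma adjusted p = 0.0842) and 0.67 ± 0.20 in F344 (limma adjusted p = 0.0585). BN and F344 DA differed by -0.05 ± 0.20 (adjusted p = 0.911). Without BN DA replicate 2 the difference in BN was 1.16 (adjusted p = 0.00427), and without BN DA replicate 1 it was 0.49 (0.125). The F344 difference of Fabp3 passed in 8 of 19 alternatives: without either BN DA array (adjusted p = 0.00584), after repeated quantile normalization (0.0246), cyclic loess (0.0346) or centring on brighter genes (0.0179), with array weights (0.00899), with a replicate block (0.0393) and with only the 4 arrays compared (0.00795).

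Fabp4, the adipocyte-type protein that is also made by capillary endothelium and macrophages, was at 6.09 and 6.43 in BN DA, against 5.36 and 5.53 in F344 DA. In aorta it was at 6.36 and 6.35 in BN and at 6.17 and 5.44 in F344. The BN arrays lay above the F344 arrays within each vessel. The strain difference was 0.82 ± 0.22 SE in DA (limma adjusted p = 0.0665) and 0.69 ± 0.16 averaged over the vessels (limma adjusted p = 0.0538), and neither passed. Without BN DA replicate 1 they were 0.99 (adjusted p = 0.0444) and 0.77 (adjusted p = 0.022). Without F344 aorta replicates 1 and 2 the DA difference stayed at 0.82, with an adjusted p of 0.044 in each case, and without replicate 1 the averaged difference was 0.87 (adjusted p = 0.0329). The DA difference of Fabp4 also passed after repeated quantile normalization (1.12, adjusted p = 0.0263). The averaged one also passed after that normalization (0.0301), after cyclic loess (0.0431), with a mean-variance trend (0.0482) and with a replicate block (0.044).

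The genes of mitochondrial entry were not called in any contrast. Cpt1a, the widely expressed carnitine palmitoyltransferase 1, lay between 9.16 and 9.62 over the 8 arrays, with group means of 9.34 ± 0.25 in BN DA, 9.42 ± 0.05 in BN aorta, 9.45 ± 0.24 in F344 DA and 9.48 ± 0.03 in F344 aorta (SD, n = 2). Cpt1b, the muscle-type enzyme, lay between 6.39 and 6.58. Neither passed in any of the 7 contrasts, and the largest of their differences was 0.12 ± 0.12 SE, for Cpt1b in BN DA against F344 DA (limma adjusted p = 0.604). The sign of each of these differences changed in at least 1 alternative, except that of Cpt1a between BN and F344 aorta.

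Of the oxidation enzymes, Acadm was lower in DA than in aorta and Acadl and Hadha were not called. Acadm encodes the medium-chain acyl-CoA dehydrogenase, and was at 8.70 and 8.67 in BN DA, against 8.84 and 9.11 in BN aorta. In F344 it was at 8.53 and 8.55 in DA and at 9.04 and 9.20 in aorta. The DA arrays lay below the aorta arrays in each strain. In F344 Acadm fell by 0.58 ± 0.13 SE (limma adjusted p = 0.0196), in BN the difference was -0.29 ± 0.13 (adjusted p = 0.372), and averaged over the strains it fell by 0.44 ± 0.09 (adjusted p = 0.0129). These calls rested on the scaling of the arrays. After repeated quantile normalization, cyclic loess or centring on brighter genes the F344 difference was between -0.37 and -0.38 (adjusted p between 0.13 and 0.139) and the averaged one -0.31 (adjusted p between 0.0771 and 0.0845). The F344 call was also lost without F344 DA replicate 1 (-0.57, adjusted p = 0.0998) or 2 (-0.60, 0.109) and without F344 aorta replicate 1 (-0.66, 0.0764) or 2 (-0.50, 0.153), and the averaged one without F344 aorta replicate 2 (-0.40, 0.0648).

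Acadl, the long-chain acyl-CoA dehydrogenase, lay between 9.29 and 9.62, and Hadha, the alpha subunit of the trifunctional protein, between 9.80 and 10.24. Their differences were between -0.17 and 0.18 in the 4 pairwise contrasts. A further Hadha probe set lay between 8.64 and 9.03 and was not called in any of the 7 contrasts. The Ppargc1a excess of BN DA was thus measured beside differences between BN DA and BN aorta of -0.29 ± 0.13 SE for Acadm, 0.02 ± 0.13 for Acadl, -0.12 ± 0.16 for Hadha, -0.08 ± 0.16 for Cpt1a and -0.01 ± 0.12 for Cpt1b.

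**Figure D2:**
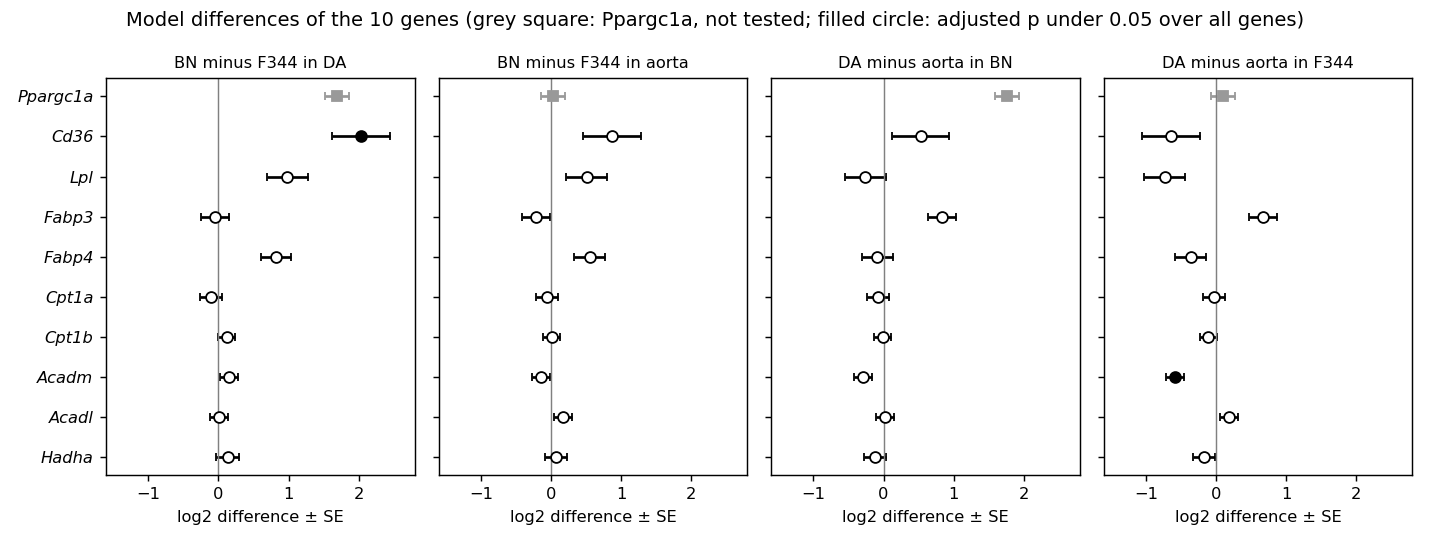
Log2 difference (x axis, point, with its SE as the bar) of each of the 10 genes (rows) in the 4 pairwise contrasts, from one limma model of all 8 arrays. Filled circles have an adjusted p under 0.05 over all genes (Cd36 in BN minus F344 in DA, Acadm in DA minus aorta in F344), open circles do not, and the grey square of Ppargc1a was not tested; Ppargc1a lies near 1.7 in the contrasts with BN DA and near 0 in the other 2.

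The calls among the 9 genes other than Ppargc1a are given here beside the shares of all genes called. Between BN and F344 DA, 1 of the 9 was called higher (Cd36), where 4.53% of all genes were called, with 2.43% higher and 2.1% lower, and the median difference of the 9 was 0.13, against 0 for all genes and 0.11 for genes above the median level. Between BN and F344 aorta 0 of the 9 were called by limma and 1 had an unadjusted p under 0.05, where 0.159% of all genes were called, with 0.0827% higher and 0.0758% lower. In BN, 0 of the 9 differed between DA and aorta by limma and 1 had an unadjusted p under 0.05, where 1.81% of all genes were called and the median was -0.08, against 0 for all genes and -0.04 for genes above the median level. In F344, 1 of the 9 was lower in DA (Acadm), where 14% of all genes were called and 5.12% were called lower, and the median was -0.17, against -0.04 for all genes and -0.17 for genes above the median level. Averaged over the strains, Fabp3 was higher and Acadm lower in DA, where 16.6% of all genes were called, with 10.1% higher and 6.47% lower. Averaged over the vessels, Cd36 was higher in BN (1.45 ± 0.29 SE, limma adjusted p = 0.0389), where 2.65% of all genes were called and 1.63% were called higher. This call was lost without any 1 of the BN aorta, F344 DA or F344 aorta replicate 2 arrays (values of at least 1.13). The same call was lost after centring on brighter genes (1.38, limma adjusted p = 0.0653) and with every probe set tested (1.45, 0.078). For the difference of tissue effects between strains 0% of all genes were called by limma (1403 had an unadjusted p under 0.05), and 0 of the 9 had an unadjusted p under 0.05. Arrays did not overlap in 5 of the 9 genes between BN and F344 DA, each higher in BN, where 25.9% of all genes were higher and 24.3% lower without overlap, 50.1% in all. Between BN and F344 aorta they did not overlap in 2 genes higher and 1 lower in BN, where 35.7% of all genes did not overlap. Between DA and aorta they did not overlap in 1 gene higher (Fabp3) and 1 lower (Acadm) in BN, where 37.3% of all genes did not overlap. In F344 these were 2 higher and 3 lower, where 29.6% of all genes were higher and 37.8% lower without overlap, 67.4% in all. With 2 arrays against 2 an exact permutation test cannot go below a p of 0.33.

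Other genes of lipid use, 103 in 7 lists, were examined beside these, and 92 of them were on the array with a single symbol. Between DA and aorta in BN, 0 rose and 1 fell (1.09% called, against 1.81% of all genes). In F344, 2 rose and 4 fell in DA (6.52%, against 14%), but 3 were higher and 2 lower after repeated quantile normalization or cyclic loess, and 6 higher and 2 lower after centring on brighter genes. Between BN and F344, 1 was higher and 1 lower in BN DA (2.17%, against 4.53%), and 0 were higher and 1 lower in BN aorta (1.09%, against 0.159%). The medians of the 92 differences lay between -0.10 and 0.01 in these contrasts, and those of all genes between -0.04 and 0. Counts moved by over 1.5 times when single arrays were left out: in F344 there were 0 without F344 DA replicate 2, 1 without either F344 aorta array and 10 without either BN DA array. Between DA and aorta in BN there were 2 without BN DA replicate 1 and 0 without any other array. Between BN and F344 DA there were 0 without either F344 DA array, 4 without BN DA replicate 2 and 2 or 3 otherwise.

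The genes called between the strains encode beta-oxidation enzymes. Acaa2, the mitochondrial thiolase of the last step, was at 8.70 and 8.97 in BN DA, against 9.61 and 9.64 in F344 DA, and at 8.69 and 8.71 in BN aorta, against 10.04 and 9.78 in F344 aorta. The Acaa2 difference between BN and F344 was -0.79 in DA (limma adjusted p = 0.0211) and -1.21 in aorta (limma adjusted p = 0.0159), and averaged over the vessels it was -1.0 ± 0.10 SE (limma adjusted p = 0.00202), a call that was kept in all 18 alternatives. Hadh, the short-chain hydroxyacyl-CoA dehydrogenase, was at 9.82 and 9.73 in BN DA, against 9.05 and 9.17 in F344 DA, and at 9.90 and 9.98 in BN aorta, against 9.41 and 9.32 in F344 aorta. Hadh was higher in BN by 0.66 in DA (limma adjusted p = 0.0225) and by 0.62 averaged over the vessels (limma adjusted p = 0.0103). Without F344 DA replicates 1 and 2 the DA calls were lost (differences of -0.81 and -0.78 for Acaa2, and of 0.60 and 0.72 for Hadh). Both DA calls were also lost with only the 4 arrays compared (limma adjusted p = 0.0658 for Acaa2 and 0.0844 for Hadh). That of Hadh was lost after centring on brighter genes too (0.51, limma adjusted p = 0.0699). The Acaa2 call in aorta was lost without any 1 of the BN aorta, F344 DA or F344 aorta arrays (adjusted p between 0.0701 and 0.233), and the averaged Hadh call without any 1 of the F344 arrays (adjusted p between 0.0508 and 0.0796). Of the 17 other genes of mitochondrial beta-oxidation tested, these were the only ones called between the strains within a vessel.

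Between the vessels, averaged over the strains, 2 of the 92 genes were higher and 7 lower in DA (9.78% called, against 16.6% of all genes). After cyclic loess or centring on brighter genes 3 were higher and 3 lower, and the total was 2 without F344 DA replicate 2 or F344 aorta replicate 1, 3 without BN aorta replicate 1 or F344 aorta replicate 2, 5 without F344 DA replicate 1 and between 7 and 12 without the others. Acsl1, a long-chain acyl-CoA synthetase, was at 7.76 and 7.72 in BN DA, against 8.40 and 8.27 in BN aorta, and at 7.52 and 7.42 in F344 DA, against 8.09 and 8.20 in F344 aorta. Averaged over the strains Acsl1 fell by 0.63 ± 0.09 in DA (limma adjusted p = 0.00153), a call kept in all 18 alternatives. Prkaa2, a catalytic subunit of the energy sensor AMPK, was at 8.37 and 8.23 in F344 DA, against 9.01 and 8.95 in F344 aorta, and at 8.74 and 8.75 in BN DA, against 9.04 and 8.89 in BN aorta. Prkaa2 fell by 0.68 ± 0.12 in F344 (limma adjusted p = 0.00716) and by 0.45 ± 0.09 averaged over the strains (limma adjusted p = 0.00765), and the averaged call was kept in all 18 alternatives. The F344 calls of Prkaa2 and Acsl1 were lost without F344 DA replicate 2 (adjusted p of 0.0709 and 0.0677), that of Prkaa2 also without F344 aorta replicate 1 (0.0701), and that of Acsl1 without F344 aorta replicate 2 (0.0665). In F344 DA, Acsl5, another acyl-CoA synthetase, fell by 0.59 and Scp2, a peroxisomal thiolase and sterol carrier gene, by 0.45, and Fabp7, the brain-type binding protein, rose by 0.61 and Mgll, monoacylglycerol lipase, by 0.67 (limma adjusted p between 0.0236 and 0.0402). Each of the last 4 calls was lost without 1 or more single arrays. Those of Acsl5 and Scp2 were also lost after repeated quantile normalization, cyclic loess or centring on brighter genes (limma adjusted p between 0.115 and 0.246). Those of Fabp7 and Mgll were kept under these scalings. With every probe set tested, the calls of Acsl5, Scp2 and Mgll were lost (limma adjusted p between 0.0635 and 0.0652).

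In BN DA against BN aorta, 0 of 19 transcription factor and coactivator genes and 0 of 10 PPAR target genes were called by limma, where 1.81% of all genes were called, so these counts are near the background. The differences, named here for the genes' roles or sizes after their values were seen, were -0.99 ± 0.24 SE for the acyl-CoA thioesterase gene Acot1 (limma adjusted p = 0.0838), 0.34 ± 0.20 for Rxrg and -0.31 ± 0.14 for Rxrb, which encode retinoid X receptors, 0.12 ± 0.12 for the related coactivator gene Ppargc1b, -0.08 ± 0.13 for Esrra (ERR-alpha), -0.01 ± 0.15 for Ppara, -0.13 ± 0.18 for Pparg, -0.17 ± 0.17 for Nrf1, -0.02 ± 0.13 for the mitochondrial transcription factor gene Tfam and 0.01 ± 0.24 for the pyruvate dehydrogenase kinase gene Pdk4. Between BN and F344 DA they were -0.14 ± 0.24 for Acot1, 0.12 ± 0.20 for Rxrg, 0 ± 0.14 for Rxrb, 0.01 ± 0.12 for Ppargc1b, -0.08 ± 0.13 for Esrra, 0.27 ± 0.15 for Ppara, 0.06 ± 0.18 for Pparg, 0.24 ± 0.17 for Nrf1, 0.22 ± 0.13 for Tfam and -0.33 ± 0.24 for Pdk4 (limma adjusted p between 0.312 and 0.993). Others of these lists lay further apart in this contrast. Group means in BN DA and F344 DA were 8.77 and 9.33 for Ppard, 6.62 and 7.18 for Sirt3, and 8.75 and 8.3 for Prkaa2. In the main fit 0 of the 19 and 0 of the 10 were called here (4.53% of all genes called), while Ppard and Prkaa2 were called with the replicate block.

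**Figure D3:**
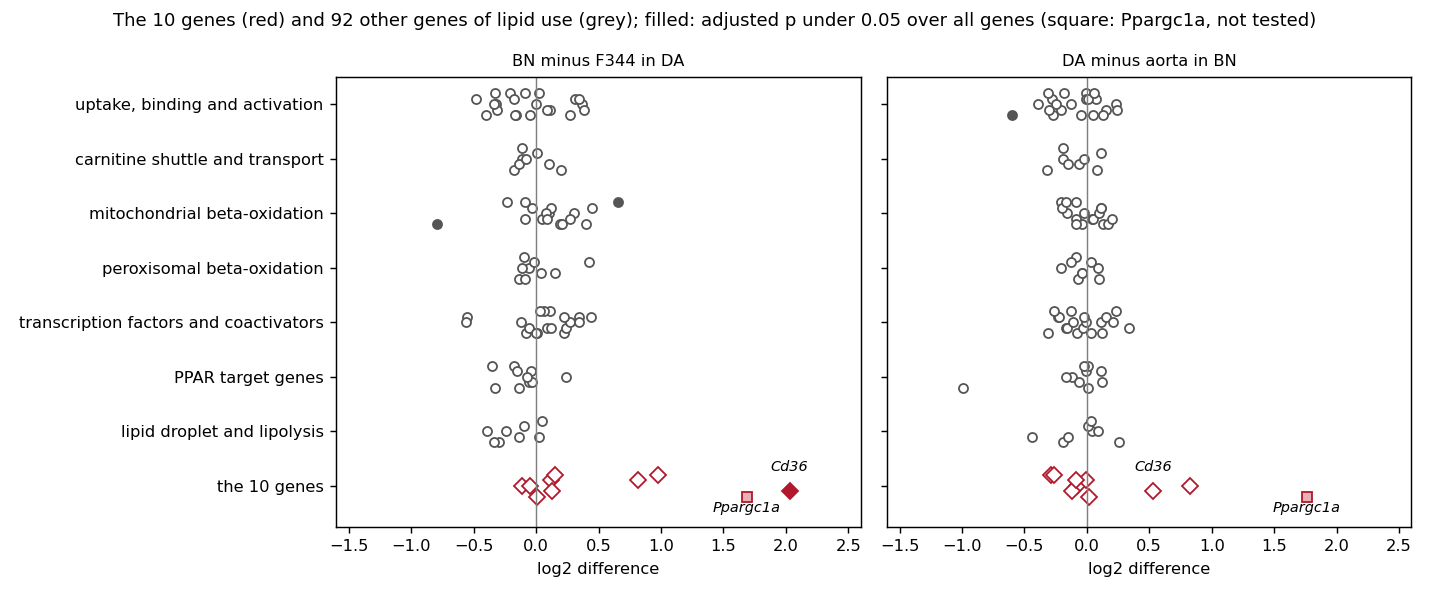
Log2 difference (x axis) of the 10 genes (red diamonds, with Ppargc1a as a square that was not tested) and of 92 other genes of lipid use (grey circles, by list), for BN minus F344 in DA (left) and DA minus aorta in BN (right); filled symbols have an adjusted p under 0.05 over all genes, and the vertical offset within a row only separates points. Ppargc1a (1.69 and 1.76) and, on the left, Cd36 (2.03) lie beyond every one of the 92 other genes. Since Ppargc1a was selected on its difference between the vessels in the strains, its place here is a description.

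The dissected tissues gave Acta2, 1 of 7 smooth muscle markers, at 13.64 to 13.82 on all arrays. By limma, 3 of the 7 were called higher in DA than in aorta averaged over the strains (16.6% of all genes called). Within a strain these were 2 of the 7 in F344 (14%) and 0 of the 7 in BN (1.81%). Markers of other cell types also moved with some of these genes. The mean of 8 endothelial markers was 9.07 and 8.91 in BN DA, against 8.56 and 8.43 in F344 DA, and 8.87 and 8.96 in BN aorta, against 9.06 and 8.86 in F344 aorta. The mean of 8 macrophage markers was 7.40 and 7.92 in BN DA, against 7.26 and 7.23 in F344 DA, and 7.96 and 8.03 in BN aorta, against 7.81 and 7.57 in F344 aorta. None of these markers was called by limma between BN and F344 DA (0 of 8 and 0 of 8, where 4.53% of all genes were called), with median differences of 0.50 and 0.42. In F344, where Acadm was called lower in DA and Lpl did not pass, 4 of the 8 endothelial and 2 of the 8 macrophage markers were called lower in DA than in aorta (14% of all genes called), with medians of -0.50 and -0.39. Over the 8 arrays, which share groups and may share pools, Pearson's r with the endothelial mean was 0.73 for Cd36, 0.75 for Lpl and 0.70 for Fabp4, and with the macrophage mean 0.71, 0.92 and 0.84, given as descriptions without a test. Emcn, a capillary and venous endothelial marker singled out after its values were seen, had r of 0.94 with Cd36, with values of 7.32 and 8.13 in BN DA, against 6.68 and 6.64 in F344 DA, and of 7.14 and 7.55 in BN aorta, against 7.37 and 6.02 in F344 aorta. Cd36, Lpl, Fabp4 and Emcn were each higher on F344 aorta replicate 1 than on replicate 2, Cd36 by 1.30, Lpl by 0.93 and Fabp4 by 0.73. Of the other endothelial markers, Kdr, Cdh5 and Tek were also higher on replicate 1, whereas Cldn5 (7.98 and 8.33), Tie1 (10.38 and 10.63), Pecam1 (10.52 and 10.58) and Esam (10.07 and 10.11) were lower on replicate 1. Among one another, Cd36, Lpl and Fabp4 had r between 0.86 and 0.94. The part of these cells in the strain differences was not tested, and fewer cells of a type and less RNA per cell cannot be told apart in such bulk samples.

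**Figure D4:**
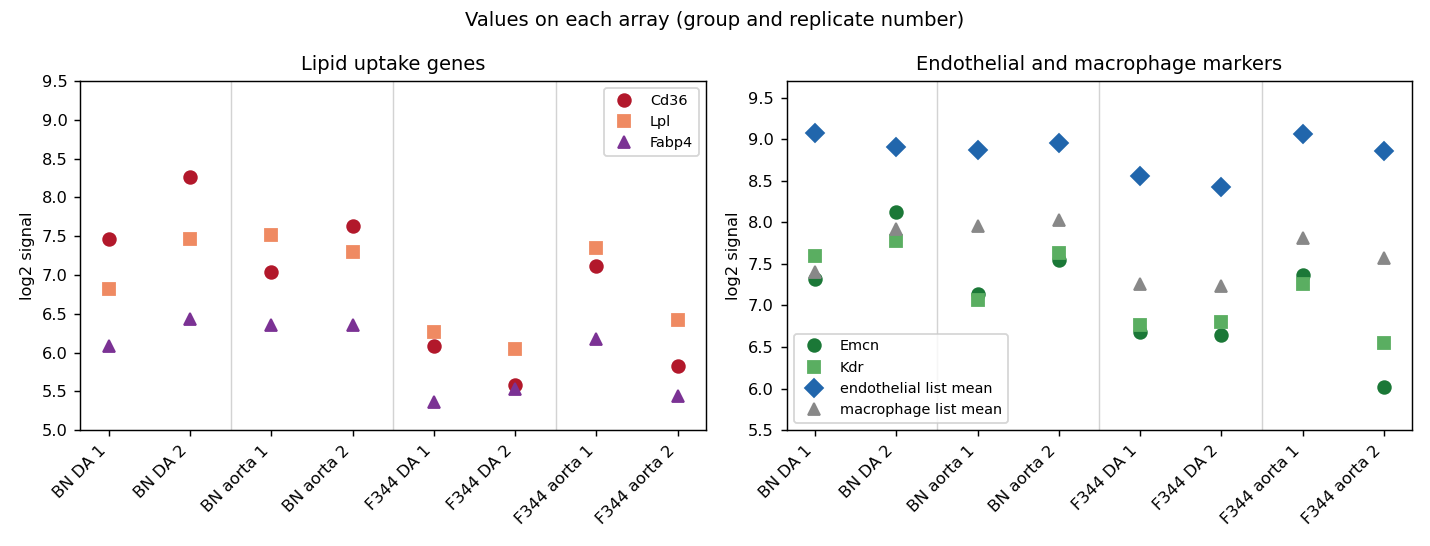
Log2 signal (y axis) on each of the 8 arrays (x axis, group and replicate number) of Cd36, Lpl and Fabp4 (left) and of the endothelial markers Emcn and Kdr and the means of 8 endothelial and 8 macrophage markers (right). Emcn and Kdr are markers that followed Cd36 closely (r of 0.94 and 0.95), and other endothelial markers did so less. Cd36, Lpl, Fabp4, Emcn and Kdr are each higher on F344 aorta replicate 1 than on replicate 2, and Cd36, Lpl and Fabp4 are lower on both F344 DA arrays than on both BN DA arrays.

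Adipocyte markers were not called between BN DA and BN aorta or F344 DA (0 of 6 adipocyte and 0 of 4 brown adipocyte markers by limma, where 1.81% and 4.53% of all genes were called). The mean of 6 adipocyte markers lay between 6.38 and 6.59 over the 8 arrays and that of 4 brown adipocyte markers between 5.57 and 5.85. Ucp1, the uncoupling protein of brown fat and a classic PGC-1alpha target, was at 5.42 and 5.86 in BN DA, against 5.56 and 5.86 in BN aorta and 6.17 and 5.82 in F344 DA, and Adipoq (adiponectin) lay between 5.65 and 6.07 on all arrays. The mean of 11 cardiomyocyte markers was 6.67 and 6.84 in BN DA, 6.51 and 6.71 in BN aorta, 6.45 and 6.57 in F344 DA and 6.43 and 6.51 in F344 aorta, with r of 0.81 with Ppargc1a. By limma, 0 of the 11 were called between BN DA and BN aorta (1.81% of all genes called) or F344 DA (4.53%). In BN DA, 5 of the 11 were higher than in F344 DA without overlap: Tnnt2 (cardiac troponin T), with group means of 8.36 and 7.13, Ryr2 with 7.44 and 6.99, Actn2 with 6.81 and 6.36, Myl3 with 7.36 and 7.0, and Myh7 with 6.47 and 6.18. Nppb was lower without overlap (6.20 and 6.39), and the other 5 (Myh6, Myl2, Myl7, Tnni3 and Nppa) overlapped. Of all genes, 25.9% were higher and 24.3% lower without overlap in this contrast, 50.1% in all. Tnnt2 was at 7.47 and 9.24 on the BN DA arrays. The mean of the thymocyte and lymphocyte markers reached 6.92 in BN DA replicate 1, and the remaining 7 arrays lay between 5.89 and 6.05. The part of cardiac or lymphoid cells in the Ppargc1a level was not tested. Beside the vessel differences of Fabp3 and Acadm, the mean of 7 smooth muscle markers was 12.07 and 11.82 in BN DA, against 11.77 and 11.57 in BN aorta, and 12.14 and 12.00 in F344 DA, against 11.66 and 11.64 in F344 aorta, with r of 0.88 with Fabp3 and -0.91 with Acadm, and its part in their differences was not tested.

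The genes whose values were most like those of Ppargc1a over the 8 arrays, among 1133 genes with a mean above the median of all genes and an SD of at least 0.3, were Lrp1b (r = 0.969), Kiaa0040 (0.963), Acan (0.936), Dph6 (0.923) and Cenpk (0.912). Lrp1b, of the LDL receptor family, was at 8.23 and 8.54 in BN DA and between 7.04 and 7.41 on the 6 other arrays. Acan, which encodes the cartilage proteoglycan aggrecan, was at 9.12 and 10.48 in BN DA and between 7.51 and 8.13 elsewhere. The filter on the mean includes the BN DA arrays, and Lrp1b passed it through them. The pattern matched is the one for which Ppargc1a was selected, so the likeness is a description.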

How the data were processed

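Expression of 29215 probe sets was read from the deposited table of 8 arrays, whose columns of log2 values were normalized by the authors with RMA, per the submitters' processing notes. The log2 scale was taken from the values (1.07 to 14.15), while no source used here gives the version or settings of RMA or the annotation build. The platform annotation of the probe sets gave 1 symbol to 15310, several to 323 and none to 13582, and 15279 of the first were matched to RefSeq by Entrez identifier. Probe sets of 14506 genes were kept, by the highest mean. Probe signals do not separate transcript level from how well a strain's transcript binds the probes. The number of arrays limits the precision.

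One limma model (version 3.58.1, R 4.3.3) with a mean per group was fitted to all 14506 genes and 8 arrays (4 residual and 5.2 prior degrees of freedom), for 7 contrasts, with two-sided tests and Benjamini-Hochberg adjustment over all genes at 0.05. Errors of differences are model SEs. The procedure was tested on simulated data. The 10 genes and all lists were chosen with earlier results of these data known. All 10 genes are named, with up to 4 called genes per list and contrast and the 5 genes most like Ppargc1a. The alternatives were other scalings, probe set rules, variance models, array weights, a filter on dim genes, a replicate block, fits to the 4 arrays compared, and each array left out. Replicate numbers were not taken as pairs.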

Additional observations from a re-analysis of the deposited data

Results flagged for a closer look

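Fabp7, the brain-type fatty acid binding protein, had strain differences of opposite direction in the vessels, with no overlap of arrays in either. Of all genes, 50.1% did not overlap between the strains in DA and 35.7% in aorta. The aorta difference was small, with group means of 6.3 in BN and 6.24 in F344 and nearest arrays of 6.26 and 6.25. It was at 6.38 and 6.69 in BN DA, against 6.72 and 6.97 in F344 DA, and at 6.26 and 6.34 in BN aorta, against 6.22 and 6.25 in F344 aorta. The difference of the strain effects was -0.38 ± 0.21 SE and did not pass (limma adjusted p = 0.601). Groups of 2 arrays are too small for a test of single outlying arrays.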

How the results depend on the processing

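Of 1265 values of the 10 genes under alternatives, 1213 kept their side of the threshold, 25 lost the call, 27 gained it and 0 of the called ones changed sign, while 77 uncalled values near 0 changed sign. These values and the counts of called genes below include Ppargc1a, which was selected on its difference between the vessels in the strains. Its calls describe stability under the settings and are no evidence of a difference. In the main fit it was the 1 gene called between DA and aorta in BN. It was also 1 of the 2 called between BN and F344 DA, with Cd36. For DA against aorta in BN the count was 1, and 0 when only genes above the median of all genes were tested, which left 5 of the 10 and removed Ppargc1a. For DA against aorta in F344 it was 1, and 2 with array weights, with the replicate block and with only the 4 arrays compared (Acadm and Fabp3), and after repeated quantile normalization, cyclic loess and centring the 1 gene was Fabp3 in place of Acadm. For BN against F344 DA it was 2, 3 after repeated quantile normalization (with Fabp4), 1 after centring on brighter genes, with every probe set tested and with array weights, and 0 among genes above the median. Averaged over vessels it was 2, 3 (with Fabp4) after quantile normalization, cyclic loess, a mean-variance trend and the replicate block, 1 after centring and with every probe set tested, and 0 among genes above the median. For the difference of tissue effects between strains it was 0, and 1 (Ppargc1a) with the replicate block. With each array left out the counts were between 1 and 2 (DA against aorta in BN), 0 and 2 (in F344), 1 and 4 (BN against F344 DA), 0 and 0 (aorta), 3 and 4 (vessels, averaged over strains), 0 and 4 (strains, averaged over vessels) and 0 and 1 (difference of tissue effects). Same-numbered replicates deviated together with correlations between 0.03 (BN DA with F344 aorta) and 0.52 (BN DA with BN aorta) for the 6 pairs of groups, all positive and 5 of them over 0.1. For F344 DA with F344 aorta the correlation was 0.22. Since 1 was not over 0.1 and the labels name no shared litter or day, the numbers were not taken to pair the samples, although Ppargc1a was lower and Hadha higher on replicate 1 in all 4 groups. The mean of 7 erythroid markers was also higher on replicate 1 in all 4 groups. It was 8.71 and 7.61 in BN DA, 8.27 and 7.6 in BN aorta, 8.36 and 7.51 in F344 DA and 7.89 and 7.27 in F344 aorta. The labels do not say whether same-numbered arrays of a strain share animals. Among the values of the 10 genes, the block added the calls of Fabp3 in F344 (adjusted p = 0.0393) and Fabp4 averaged over vessels (0.044) and, for Ppargc1a, the difference of tissue effects, and removed none. The replicate block gave 1583 calls over all genes between BN and F344 DA in place of 657, and leaving out F344 DA replicate 2 gave 13. Over all alternatives the calls over all genes were between 16 and 600 in place of 262 (DA against aorta in BN), 628 and 3710 in place of 2028 (F344), 0 and 69 in place of 23 (BN against F344 aorta), 887 and 3218 in place of 2403 and 55 and 1015 in place of 384 (averages), and 0 and 56 in place of 0. Centring on brighter genes moved the median of all genes to 0.16 (DA against aorta in F344), -0.15 (BN against F344 DA) and -0.14 (difference of tissue effects), and the share of calls that were higher from 63.4% to 87.6%, from 53.7% to 23.7% and, averaged over the strains, from 60.9% to 82.4%, and over the vessels from 61.5% to 37.4%. The cause of these changes was not tested.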
